A study of Saccharomyces cerevisiae with 12 samples.

Results

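Growth of *Saccharomyces cerevisiae* in SC, a synthetic complete medium, was compared between 37°C and 30°C across all genes that averaged 10 counts or more in the 4 libraries concerned. This rule kept 6040 of the 7127 identifiers in the table, of which 5658 were placed on the annotation of the R64 genome and 382 were not. The strain was BY4743, a diploid of the laboratory lineage that is homozygous for deletions of *URA3* and *LEU2* and for a partial deletion of *HIS3*, and that keeps a single copy of *LYS2* and of *MET17*; all groups shared this genotype. Messenger RNA was sequenced from cultures in an advanced phase of growth, kept in small volumes in titration plates, with 2 independently propagated replicates for each environment. The groups compared were SC kept at 37°C and the same medium kept at 30°C. The other environments, for 12 libraries in all, were salt (SC plus NaCl at 40 g/l, 30°C), YPG (rich medium in which glycerol replaces glucose, 30°C), and the rich glucose medium YPD at 32°C and at 24°C. They enter through a common estimate of spread and as a point of reference. Growth stage at harvest and temperature cannot be told apart, and in bulk RNA fewer cells in a given state cannot be told apart from less of a transcript per cell.

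As background, 37°C is close to the upper end of the range in which budding yeast grows well. A sudden shift to this temperature sets off a transient heat shock response, in which the transcription factor Hsf1 raises chaperones, Msn2 and Msn4 raise general stress genes, and genes for ribosomes drop for a short time. The cultures compared here were propagated at their temperature and harvested in an advanced phase of growth. Whether they had passed that transient phase was not tested. Biosynthesis, metal uptake, redox enzymes, protein synthesis and protein turnover are described here before the chaperones.

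The totals of the deposited counts were between 14024119 and 14109851 in the 4 libraries because the authors scaled them, and the step between low values stood for about 13700000 and 12600000 read pairs at 37°C, against 15500000 and 14500000 at 30°C. Replicates correlated with r = 0.992 at 37°C and 0.993 at 30°C on log2 values across genes, which are not independent replicates, and their median absolute difference was 0.12 and 0.11 on the log2 scale. The markers of the strain fitted the labels: no library of the 4 had any count of *URA3* or of *LEU2*. The remaining part of *HIS3* had 1563 and 1462 counts at 37°C, against 971 and 1108 at 30°C. Of 15 tested genes typical of haploid and mating cells, which diploids keep low, 2 (13.3%) were higher at 37°C and none lower. Of 20 genes of sporulation 3 (15%) were higher and 1 (5%) was lower. By the same test, given below, 11.9% of all genes were higher and 11.6% lower, so the shares that were higher lay near that of all genes. The receptor genes *STE2* and *STE3* had 104 and 132, and 234 and 259 counts at 37°C, against 114 and 138, and 240.2 and 255.1 counts at 30°C. Of 19 genes of stationary phase and quiescence, 1 (5.26%) was higher and 3 (15.8%) were lower at 37°C, with a median log2 difference of -0.27. The number lower depended on single libraries, with fewer without library 1 at 37°C and more without library 1 at 30°C.

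Of the 6040 genes, 1423 (23.6%) differed between 37°C and 30°C at an adjusted p below 0.05 (limma on log2 of the count plus 1, two-sided, Benjamini-Hochberg over all genes), 720 of them (11.9%) higher and 703 (11.6%) lower at 37°C. These p-values rest on the spread between the 2 independently propagated cultures of a group, estimated jointly over the 6 environments. This spread was not taken from the 2 groups compared alone. SC with NaCl had the widest median absolute difference between replicates, 0.22 on the log2 scale. With the 4 libraries alone 1710 genes were called. The median log2 difference over all genes was 0.02. A difference of at least 1 log2 unit was called for 205 genes (3.39%), and for 3953 genes (65.4%) the values at 37°C lay all above or all below those at 30°C. With 2 libraries a group such separation is easily met, and it was far more frequent than the calls. Leaving out library 1 or 2 at 37°C left 919 and 851 calls, and leaving out library 1 or 2 at 30°C left 915 and 859.

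The change was mild for most genes, and its largest steps were falls. Of the 46 genes that differed by more than 2 log2 units 36 were called lower and 8 higher, and of the 183 genes between 1 and 2 units 90 were lower and 71 higher. Between 0.5 and 1 unit the calls ran the other way, with 287 higher and 215 lower of 673 genes. Calls were more frequent among genes with high counts, 7.77% of genes with a mean of 10 to 100 counts, 19.0% from 100 to 1000, 28.1% from 1000 to 10000 and 52.6% of the 211 genes at 10000 and more, of which 78 were higher and 33 lower. Precision moved with the count as well, with a median standard error of 0.39 log2 units in the lowest of these classes and 0.1 in the highest. The 5 genes with the highest mean counts, *TDH3*, *FBA1*, *ENO2*, *PDC1* and *GPM1*, which encode enzymes of glycolysis and fermentation, had log2 differences of 0.05, 0.15, -0.11, 0.05 and -0.0004, and none passed the test.

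**Figure D1:**
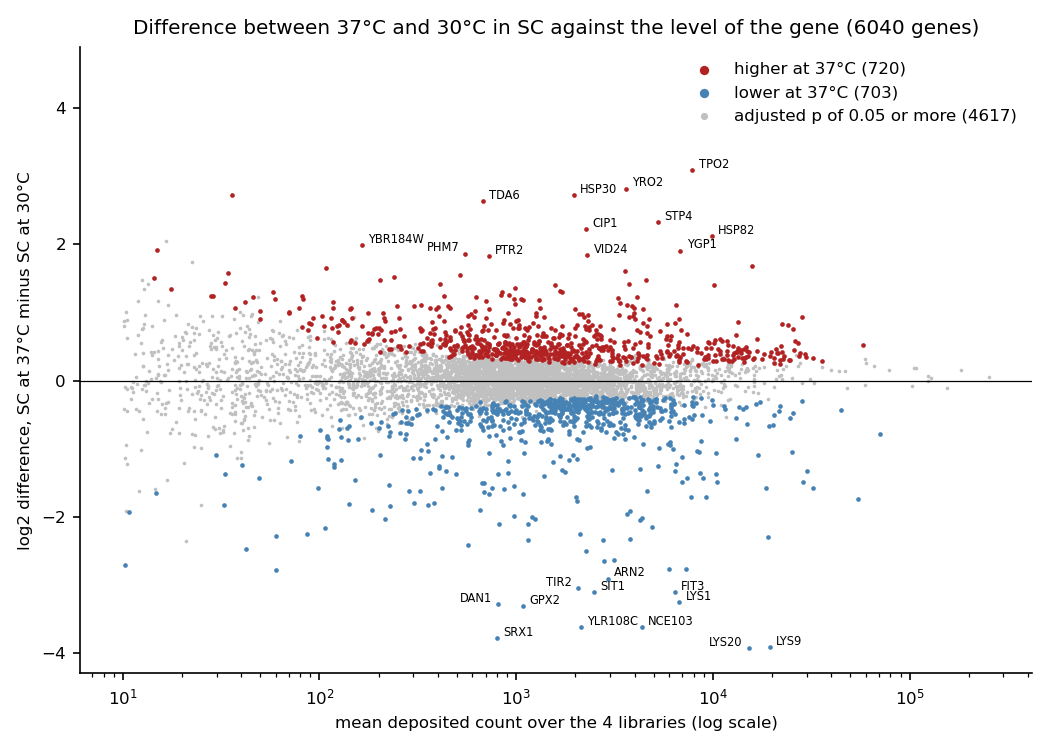
Difference in SC, 37°C minus 30°C (y axis, log2) against the mean deposited count over the 4 libraries (x axis, log scale) for 6040 genes, with 720 called higher in red, 703 called lower in blue and the others in grey. The 12 largest called rises and the 12 largest called falls among genes with a mean of at least 100 are named; the falls reach -3.93 (*LYS20*) and the rises 3.09 (*TPO2*).

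Genes for the biosynthesis of lysine fell, and their list had the lowest median of the 7 lists of amino acid synthesis examined; the other 6, for arginine, histidine and the sulfur, branched-chain, aromatic and serine families, had medians between -0.08 and 0.15. Yeast makes lysine through the aminoadipate pathway, in which homocitrate synthases (*LYS20*, *LYS21*) start the chain, Lys4 and Lys12 act on the way to oxoadipate, Lys2 reduces aminoadipate, and the saccharopine dehydrogenases Lys9 and Lys1 finish it; Lys14 activates these genes when the intermediate aminoadipate semialdehyde is present. Of 12 members tested 9 fell (75%) and none rose, and the list had a median log2 difference of -1.79. The summed counts of the list took 0.232% and 0.261% of all counts at 37°C, against 1.03% and 1.17% at 30°C. No library changed the count of 9 when it was left out.

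*LYS9* (YNR050C, chromosome XIV, 714048 to 715388) had 2086 and 2774 counts at 37°C, against 32047 and 40897 at 30°C. *LYS20* (YDL182W, chromosome IV, 133437 to 134723) had 1706 and 2059 counts at 37°C, against 27807 and 29429 at 30°C. Both transcripts were low in each library at 37°C, more than an order of magnitude below 30°C, with no overlap, and the log2 differences were -3.91 (SE 0.13, adjusted p = 3.2e-11) and -3.93 (SE 0.10, adjusted p = 1e-12). *LYS1* had 1181 and 1368 counts at 37°C, against 10684 and 13847 at 30°C, and *LYS12* had 5791 and 7049 counts at 37°C, against 28752 and 34307 at 30°C. These fell by 3.26 and 2.30 on the log2 scale. The paralog *LYS21*, whose sequence is close enough to that of *LYS20* for reads to be split between them, kept 4015 and 3994 counts at 37°C, against 10606 and 10892 at 30°C, a smaller fall of 1.42 (SE 0.07). *LYS2* and *LYS4* fell by 1.96 and 1.62, and the activator *LYS14* by 0.52 (adjusted p = 0.0016). The enzymes on the list that also serve other pathways did not pass: the aminotransferases *AAT2* and *ARO8* had log2 differences of -0.22 and 0.04, and *LYS5*, which equips Lys2 with its cofactor, -0.03. *LYP1*, the lysine permease, fell by 1.01.

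The letters TCCNNNGGA, a core bound by Lys14, were found within 300 bases before the start codon of 5 of the 12 genes of the list (41.7%), all 5 of them lower at 37°C, against 3.12% of 5634 promoters; the core reads the same on both strands. Of the 7 genes without the core 4 were lower as well, *LYS20* among them. The Gcn4 site TGACTCA, searched on both strands, was in 5 of the 12 as well, against 2.72% of all promoters. The stretches around the Lys14 core (capitals) are shown for the saccharopine dehydrogenases and for *LYS12*, whose transcripts carried the largest falls with a match; they are from the RefSeq sequence of R64, 5′ to 3′ on the strand of the gene.
LYS9, chrXIV:715531-715625, minus strand: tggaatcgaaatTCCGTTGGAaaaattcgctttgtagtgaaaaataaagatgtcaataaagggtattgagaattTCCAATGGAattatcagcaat
LYS1, chrIX:420912-420944, minus strand: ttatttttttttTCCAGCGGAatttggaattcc
LYS12, chrIX:187794-187826, minus strand: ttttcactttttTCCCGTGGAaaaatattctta
*LYS9* holds the core in 2 places, the nearer of them 154 bases before the start codon, while *LYS1* and *LYS12* hold it 187 and 173 bases before theirs. A match is a description of these letters and does not show that a factor was bound.

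Genes of iron uptake fell together. In yeast, Aft1 and Aft2 activate the iron regulon when iron is scarce: wall mannoproteins (*FIT1* to *FIT3*) retain siderophores, surface reductases (*FRE*) free the metal, Fet3 with Ftr1 or the siderophore transporters (*ARN1*, *ARN2*, *SIT1*, *ENB1*) take it in, and Tis11 promotes decay of messengers for proteins that use iron. All 24 members tested had a log2 difference below 0, and 18 (75%) were called lower, with a median of -0.95 and 14 to 17 called lower when a library was left out. Together they took 0.2% and 0.218% of counts at 37°C, against 0.6% and 0.7% at 30°C.

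The largest falls were in the siderophore branch, but not all of its genes fell that far. *SIT1* (YEL065W, chromosome V, 27657 to 29543) had 482 and 551 counts at 37°C, against 4282 and 4641 at 30°C. *FIT3* had 1269 and 1395 counts at 37°C, against 9888 and 13155 at 30°C, and *FIT2* had 1563 and 2163 counts at 37°C, against 10327 and 15308 at 30°C. The values at 37°C were low in both libraries, and the difference was -3.11 for *SIT1* (SE 0.11, adjusted p = 5.1e-11), -3.10 for *FIT3* (SE 0.14, adjusted p = 4.7e-10) and -2.77 for *FIT2* (SE 0.18, adjusted p = 2.5e-08). The siderophore transporters *ARN2* and *ARN1*, which resemble each other in sequence, fell by 2.91 and 2.34. *FIT1* and *ENB1* of the same branch were called lower too, but fell by less than *FTR1*, *FRE1* and *FET3* below. Over the 15 alternative fits their log2 differences ran from -0.91 to -0.70 and from -0.51 to -0.24, and both calls were lost in some of these fits. In the branch that takes up iron freed by reductases, *FTR1*, *FRE1* and *FET3* fell by 1.71, 1.67 and 1.37, and *FET3* still had 5395 and 6132 counts at 37°C, against 14224 and 15584 at 30°C. *TIS11* and *MRS4*, a mitochondrial iron carrier, fell by 1.77 and 1.55. The regulators did not pass the test, with log2 differences of -0.22 for *AFT1* and -0.23 for *AFT2*. *ISU2*, a scaffold for iron-sulfur clusters that is not on the list and was chosen after its values were seen, fell by 2.25 to 812 and 668 counts at 37°C, against 3457 and 3546 at 30°C.

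The Aft1 core TGCACCC (both strands, a motif chosen after the values were seen) was present in the 300 bases before 13 of the 24 genes (54.2%), 12 of which were lower, against 1.31% of all promoters. Of the 11 genes without these letters, 6 were lower. The stretches below show the core in capitals, as TGCACCC or as its reverse complement GGGTGCA, for the genes with the largest falls among those that hold it and for *FET3*.
SIT1, chrV:27457-27487, plus strand: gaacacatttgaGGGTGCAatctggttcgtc
FIT3, chrXV:1061221-1061352, minus strand: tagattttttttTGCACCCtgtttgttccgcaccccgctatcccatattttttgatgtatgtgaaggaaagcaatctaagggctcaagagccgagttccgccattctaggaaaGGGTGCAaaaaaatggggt
FIT2, chrXV:1059253-1059283, plus strand: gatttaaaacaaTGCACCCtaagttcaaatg
FET3, chrXIII:388559-388589, plus strand: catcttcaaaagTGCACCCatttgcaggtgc
*FIT2* holds the core in 3 places in its window, of which 1 is shown, and *FIT3* in 2.

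Enzymes that keep thiols reduced were lower at 37°C. Thioredoxins and glutaredoxins pass electrons to peroxiredoxins and to glutathione peroxidases, sulfiredoxin (Srx1) repairs oxidized peroxiredoxin, and many of these genes answer to Yap1. Of 27 antioxidant genes 15 (55.6%) fell and 2 rose, the median was -0.34, and 11 to 14 were lower when a library was left out. *GPX2*, a glutathione peroxidase (YBR244W, chromosome II, 707528 to 708016), had 193 and 202 counts at 37°C, against 2007 and 1944 at 30°C. The values lay about an order of magnitude apart and did not overlap, with a log2 difference of -3.32 (SE 0.19, adjusted p = 5.9e-09). *SRX1*, among the 12 largest falls but on no list, had 107 and 110.0 counts at 37°C, against 1498 and 1497 at 30°C, and a log2 difference of -3.78 (SE 0.16, adjusted p = 3e-10). *GSH1*, the first enzyme of glutathione synthesis, fell by 1.92, thioredoxin reductase *TRR1* by 1.49, thioredoxin *TRX2* by 1.32 and the peroxiredoxin *AHP1* by 1.32. *SOD1*, the cytosolic superoxide dismutase, and *TSA1*, a peroxiredoxin, fell by 1.09 and 1.04. *YAP1* itself had 2238 and 2463 counts at 37°C, against 3472 and 3794 at 30°C, a fall of 0.63 (adjusted p = 6.7e-05). The members that rose were *CCP1*, a cytochrome *c* peroxidase of mitochondria (0.57), and *GRX1* (0.66, adjusted p = 0.12 without library 2 at 37°C and 0.12 without library 1 at 30°C). Several oxidoreductases outside the list, chosen after their values were seen, were low at 37°C as well: *GRE2*, which reduces methylglyoxal, fell by 2.05, the old yellow enzyme *OYE3* by 2.03, the glutathione transferase *ECM4* by 1.71, and the medium-chain reductases YML131W and YNL134C by 2.33 and 1.71. The cytosolic catalase gene *CTT1*, also outside the list, went the other way. It was higher at 37°C and is described with the general stress genes.

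The Yap1 site TTACTAA (both strands, chosen after the values were seen) lay before 9 of the 27 antioxidant genes (33.3%), 6 of them lower and 3 not called, against 8.08% of all promoters. Of the 18 genes without it 9 were lower. The site is shown in capitals, as TTACTAA or its reverse complement TTAGTAA, for the gene with the largest fall of the list and for *TRX2*, which holds it in 2 places.
GPX2, chrII:707256-707286, plus strand: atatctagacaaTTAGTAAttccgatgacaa
TRX2, chrVII:913390-913456, minus strand: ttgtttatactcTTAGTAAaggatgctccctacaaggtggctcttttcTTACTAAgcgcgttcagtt

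**Figure D2:**
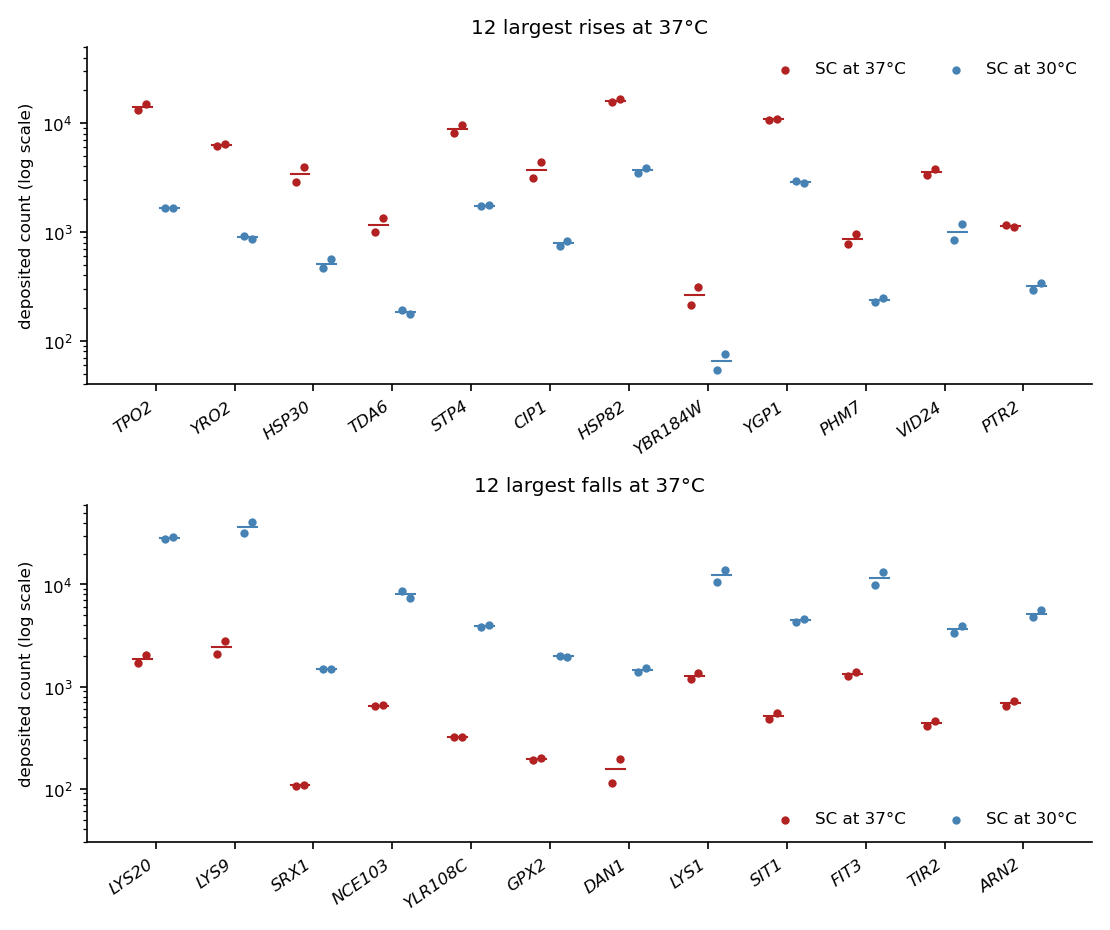
Deposited counts (y axis, log scale) in each library for the 12 largest rises (upper panel) and the 12 largest falls (lower panel), with SC at 37°C in red to the left of SC at 30°C in blue for each gene and a bar at the mean of the 2 libraries. In each of the 24 genes the libraries of the 2 temperatures are apart, as the rule for naming them required; *SRX1* has 107 and 110.0 counts at 37°C against 1498 and 1497 at 30°C.

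The proteasome fell as a whole by a small amount. The 26S proteasome degrades ubiquitinated proteins with a 20S core (*PRE* and *PUP* genes) and a 19S cap (*RPN* and *RPT* genes), and Rpn4 activates nearly all of their genes. Of 36 members 33 (91.7%) fell, none rose and all 36 had a log2 difference below 0, with a median of -0.44; 25 to 29 fell when a library was left out. The largest fall was that of the core subunit *PRE2* (YPR103W, chromosome XVI, 732349 to 733212), with 4046 and 3468 counts at 37°C, against 6129 and 5853 at 30°C. All values at 37°C were below those at 30°C, and the log2 difference was -0.68 (SE 0.10, adjusted p = 0.00011). The core subunit *PRE1* had 2192 and 2403 counts at 37°C, against 3415 and 3821 at 30°C, and the cap ATPase *RPT2* had 5111 and 5599 counts at 37°C, against 7965 and 8279 at 30°C, falls of 0.65 and 0.60. The activator *RPN4* fell by 0.61 and the alternative cap *BLM10* by 0.62. The 3 members that did not pass were the cap subunits *RPN2* (-0.16) and *SEM1* (-0.13) and the assembly factor *UMP1* (-0.19). Of 19 further genes of the ubiquitin and Cdc48 system 9 were lower and none higher (3 lower without library 1 at 37°C and 4 without library 2 at 30°C), among them *UFD1*, a cofactor of Cdc48, which fell by 0.70, and *CDC48* itself, with -0.35 (adjusted p = 0.062 without library 1 at 37°C, 0.051 without library 2 at 37°C and 0.061 without library 2 at 30°C).

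The Rpn4 site GGTGGCAAA (both strands, chosen after the values were seen) lay before 27 of the 36 genes (75%), of which 26 were lower, against 1.26% of all promoters; 7 of the 9 genes without it were lower. It is shown in capitals for *PRE2*, *PRE1* and *RPT2*, 3 of the subunits that fell.
PRE2, chrXVI:732182-732214, plus strand: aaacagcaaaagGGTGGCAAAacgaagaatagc
PRE1, chrV:177681-177713, plus strand: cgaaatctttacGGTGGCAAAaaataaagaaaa
RPT2, chrIV:437904-437936, plus strand: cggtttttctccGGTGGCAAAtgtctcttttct

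Cytosolic ribosomal proteins were higher, while the factors that assemble ribosomes were lower. Of 80 genes for proteins of the large subunit 50 (62.5%) rose and 1 fell, and of 57 for the small subunit 30 (52.6%) rose and none fell, with medians of 0.32 and 0.31. These counts depended on single libraries: for the large subunit 20 rose without library 1 at 37°C and 19 without library 2 at 30°C, and for the small subunit 9 and 5 rose without these libraries. The large subunit took 7.72% and 7.1% of counts at 37°C, against 6.18% and 5.57% at 30°C, and the small subunit 5.46% and 5.0%, against 4.48% and 3.92%. Most ribosomal proteins are encoded by pairs of near-identical genes, between which the counting could split reads. *RPS14B* stood apart, with 2235 and 2551 counts at 37°C, against 1033 and 897 at 30°C, a rise of 1.31 (SE 0.11, adjusted p = 3.9e-07), while its partner *RPS14A* rose by 0.42 (adjusted p = 0.084 without library 1 at 37°C and 0.1 without library 2 at 30°C). Rps14 represses expression of *RPS14B*. The member that fell was *RPL7B*, with 2158 and 2166 counts at 37°C, against 3593 and 3172 at 30°C, and a log2 difference of -0.64. Of 71 mitochondrial ribosomal proteins limma called 0, at a median of 0.08. Only 7 of the 71 had an unadjusted p below 0.05 in limma, against 2101 of all 6040 genes.

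Of 72 genes of ribosome biogenesis 23 (31.9%) fell and none rose, 66 had a log2 difference below 0, and the median was -0.24. The count fell to 9 and 15 without library 1 or 2 at 37°C and to 15 and 9 without library 1 or 2 at 30°C. *NOP7*, a factor of the large subunit, had 3199 and 3617 counts at 37°C, against 5043 and 5096 at 30°C, a fall of 0.58, and *SDA1*, needed for export of the precursor, fell by 0.55. Of 22 genes of RNA polymerases I and III 4 (18.2%) were lower, against 11.6% of all genes, and none was higher. Calls in this list were lost whichever library was left out. *RRN3*, an initiation factor of RNA polymerase I, fell by 0.74 (adjusted p = 0.00047). Of 34 factors of translation 3 rose (1 without library 2 at 37°C) and 1 fell.

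**Figure D3:**
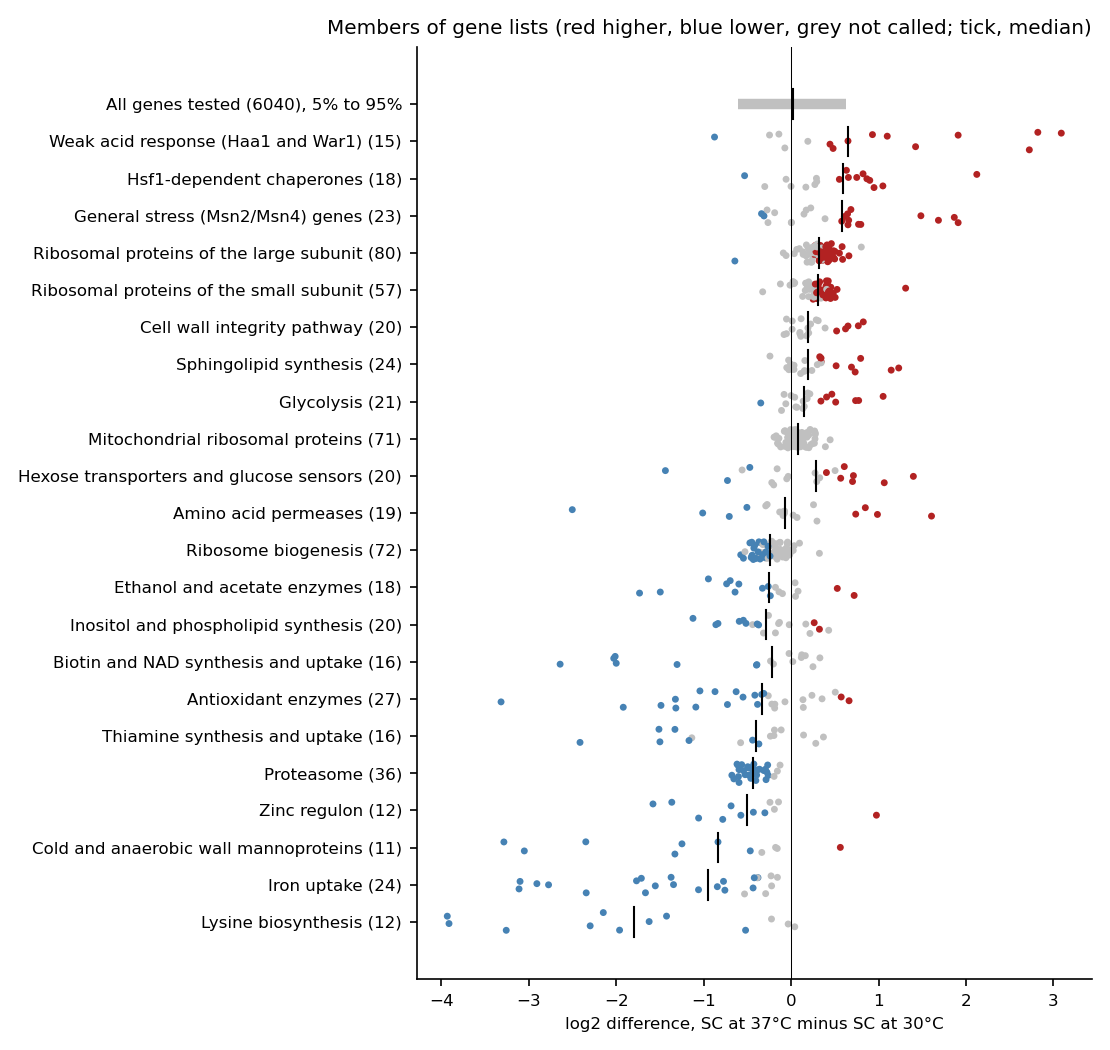
Log2 difference in SC, 37°C minus 30°C (x axis), of each tested member of selected gene lists, with the number of members in brackets, called rises in red, called falls in blue and the other members in grey; the tick is the median of the list and the top bar spans 5% to 95% of all 6040 genes. The proteasome lies wholly below 0 with a median of -0.44, ribosomal proteins lie mostly above it with medians of 0.32 and 0.31, and lysine biosynthesis has a median of -1.79.

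Chaperones under Hsf1 rose unequally. Hsp90 (*HSP82*, *HSC82*) and Hsp70 (*SSA1*, *SSA2*) fold client proteins with the help of cochaperones such as Sti1 and Aha1, and Hsp104 and Hsp78 pull aggregates apart in the cytosol and in mitochondria. Of 18 members 10 (55.6%) rose and 1 fell, with a median of 0.59. *HSP82* (YPL240C, chromosome XVI, 96496 to 98625), the inducible Hsp90, had 15532 and 16624 counts at 37°C, against 3488 and 3897 at 30°C, a rise of 2.12 (SE 0.15, adjusted p = 6.1e-08), and its paralog *HSC82*, which gave more counts per length in both groups, rose by 0.55. Reads can be split between these copies, as they can between *SSA1* and *SSA2*, which rose by 0.75 and 0.82. Apart from *HSP82* the rises were close to 1 log2 unit or less: *HSP78* rose by 1.05, *AHA1* by 0.95, *STI1* by 0.90, *HSP104* by 0.87, *CPR6* by 0.66 and *HCH1* by 0.63. The Hsp40 genes *YDJ1* and *SIS1*, the small heat shock protein *HSP42*, *BTN2*, *CUR1*, *MBF1* and *MDJ1* did not pass, with log2 differences of 0.17, -0.06, 0.29, -0.0007, -0.30, 0.29 and 0.27. *FES1*, a nucleotide exchange factor of Hsp70, fell by 0.53. Outside the list, the inducible Hsp70 gene *SSA4* was lower (-0.45). This call was lost without library 1 at 37°C, library 2 at 37°C or library 2 at 30°C, and also without the filter or the variance trend. The mitochondrial chaperonin *HSP60* rose by 0.66. In the endoplasmic reticulum, 5 of 20 genes of folding and the unfolded protein response were lower (2 or 3 when any library was left out) and 1 was higher; *SIL1*, an exchange factor of the resident Hsp70, fell by 0.99, and *HAC1*, the transcription factor of this response, rose by 0.48.

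A heat shock element of 3 units, that is, GAA and TTC in alternation with 2 bases between units, lay before 7 of the 18 genes of the Hsf1 list (38.9%), 5 of them higher, 1 lower and 1 not called, against 0.887% of all promoters. Of the 11 without such a run 5 were higher, among them *HSP82*, the largest rise of the list, and *AHA1*. The elements are in capitals in the stretches below, which show some of the members that rose and hold them. *STI1* holds 2 of them and *HSP78* a pair that overlaps.
STI1, chrXV:380799-380861, plus strand: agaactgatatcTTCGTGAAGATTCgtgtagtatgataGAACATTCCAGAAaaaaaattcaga
HSP78, chrIV:974461-974502, minus strand: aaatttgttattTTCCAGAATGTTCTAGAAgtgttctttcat
SSA1, chrI:141668-141704, minus strand: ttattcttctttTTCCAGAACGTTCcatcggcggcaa

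General stress genes under Msn2 and Msn4 rose in part. Of 23 members 12 (52.2%) rose and 2 fell, the median was 0.58, and 11 or 12 rose when a library was left out; the falls were those of *MSC1* and *UBI4*, and 0 or 1 of them was called when a library was left out (adjusted p = 0.12 without library 1 at 37°C, 0.11 without library 2 at 37°C and 0.21 without library 2 at 30°C for *MSC1*, and adjusted p = 0.061 without library 1 at 37°C, 0.1 without library 2 at 37°C, 0.092 without library 1 at 30°C and 0.067 without library 2 at 30°C for *UBI4*). *HSP12*, a small membrane-protecting protein (YFL014W, chromosome VI, 107256 to 107585), had 24129 and 24274 counts at 37°C, against 7163 and 7911 at 30°C, a rise of 1.68 (SE 0.13, adjusted p = 1.5e-07). *YGP1*, a secreted glycoprotein, rose by 1.91, *PHM7* by 1.87, *TMA10* by 1.48, the cytosolic catalase *CTT1* by 0.80 and *HSP26* by 0.61 (adjusted p = 0.16 without library 2 at 37°C and 0.14 without library 1 at 30°C). Among genes for trehalose and glycogen, *TSL1*, a subunit of trehalose synthase, rose by 1.11 and *GAC1*, which activates glycogen synthase, by 1.18, whereas the glycogen synthase *GSY1* fell by 0.94 and the branching enzyme *GLC3* by 0.76; 7 of these 20 genes rose (4 without library 1 at 30°C) and 4 fell (2 without library 1 at 37°C or library 2 at 30°C). The stress response element AGGGG (both strands) lay before 16 of the 23 Msn2/Msn4 genes (69.6%), against 22.4% of all promoters, and 7 of these 16 were higher, 2 lower and 7 not called. Of the 7 genes without it 5 were higher and 2 not called. *HSP12* holds it in its reverse complement, CCCCT, in 2 places in the stretch shown here, with the element in capitals.
HSP12, chrVI:107012-107082, plus strand: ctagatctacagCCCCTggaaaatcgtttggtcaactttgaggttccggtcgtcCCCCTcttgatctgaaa

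The largest rises belonged to a set of plasma membrane proteins known from the response to weak organic acids. Haa1 activates *TPO2*, *TPO3*, *YRO2* and others when cells meet acetic acid, and War1 activates *PDR12*. Of 15 members 10 (66.7%) rose and 1 fell, with a median of 0.65, and 9 or 10 rose when a library was left out. *TPO2*, a polyamine exporter (YGR138C, chromosome VII, 763762 to 765606), had 13234 and 14975 counts at 37°C, against 1644 and 1662 at 30°C, the largest rise of the comparison among genes with a mean of at least 100 (3.09, SE 0.15, adjusted p = 1.5e-09). *YRO2*, a membrane protein, had 6217 and 6412 counts at 37°C, against 918 and 868 at 30°C, and *HSP30*, which restrains the plasma membrane proton pump, had 2884 and 3968 counts at 37°C, against 467 and 559 at 30°C. Both were high in each library at 37°C, by 2.82 and 2.72 on the log2 scale. *TPO3*, a close copy of *TPO2*, rose by 1.42, the kinase *HRK1* by 1.10, *PHM8* by 0.93 and *MRH1* by 0.44. The regulator *HAA1* and the exporter *PDR12* did not pass, with 0.19 and -0.25. In polyamine metabolism the exporter *TPO1* fell by 0.88 and *OAZ1*, the antizyme that limits ornithine decarboxylase, by 0.81, and *TPO4* had -0.48. The call of *TPO4* was lost without library 1 at 37°C or library 1 at 30°C, and also in FPKM and without the filter or the variance trend. The synthesis genes *SPE1*, *SPE2*, *SPE3* and *SPE4* had log2 differences of -0.06, -0.25, 0.12 and -0.08, none of which passed, and the same held for *FMS1* (0.32), *TPO5* (0.15), *AGP2* (0.05) and *DUR3* (-0.34).

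Part of the genes for vitamins fell. Of 16 genes of biotin and NAD synthesis and uptake 7 (43.8%) fell, none rose and 9 were not called (median -0.22), and of 16 thiamine genes the numbers were the same (median -0.40), with 5 to 7 falls in either list when a library was left out. *BIO3*, *BIO4* and *BIO5*, neighbours on chromosome XIV that make biotin from its precursors and take these up, fell by 2.64, 2.00 and 2.03, and *VHT1*, the biotin permease, by 2.01. *BIO3* had 667 and 1109.7 counts at 37°C, against 5061 and 5695 at 30°C; its libraries at 37°C lay apart from each other but below both values at 30°C. *THI4*, which builds the thiazole ring of thiamine, had 191 and 167 counts at 37°C, against 849 and 1072 at 30°C, and fell by 2.41, and the activator *THI2* and the permease *THI7* fell by 1.50 and 1.33.

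Among metals and phosphate, 8 of 12 genes of the zinc regulon (66.7%) fell and 1 rose, with a median of -0.5. *ZPS1*, a wall protein induced when zinc is scarce, had 17906 and 14711 counts at 37°C, against 49133 and 47858 at 30°C, and fell by 1.58; *IZH2* and the vacuolar exporter *ZRT3* fell by 1.36 and 1.06. *ZRT1*, the high-affinity zinc permease, had 51887 and 51981 counts at 37°C, against 89348 and 89200.2 at 30°C, a fall of 0.78. The activator *ZAP1* fell by 0.57 (adjusted p = 0.086 without library 1 at 37°C). *ZRG8* rose (0.98). In the phosphate regulon 6 of 20 fell (3 without library 2 at 37°C or library 1 at 30°C) and 3 rose: *PHO89*, a phosphate cotransporter, fell by 1.45, the secreted phosphatase *PHO5* rose by 0.74, and the permease *PHO84* had -0.30 and did not pass.

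Permeases and enzymes of nitrogen supply moved in both directions. *GAP1*, the general amino acid permease that is kept down when good nitrogen sources are present, had 664 and 688 counts at 37°C, against 3351 and 4377 at 30°C, and fell by 2.50 (SE 0.15, adjusted p = 1.2e-08), and the ammonium permease *MEP2* fell by 1.39. Several permeases for branched-chain and other amino acids that answer to the surface sensor Ssy1 were higher. *BAP3* rose by 1.61, *AGP1* by 0.99, *BAP2* by 0.85 and *TAT1* by 0.74. *PTR2*, the peptide permease, rose by 1.84. Of 19 genes on the list of amino acid permeases 4 rose and 4 fell, with a median of -0.07. *GDH1*, the glutamate dehydrogenase of ammonium assimilation, fell by 1.58 to 9181 and 9406 counts at 37°C, against 25523 and 30341 at 30°C, and glutamine synthetase *GLN1* rose by 0.93. Other amino acid pathways moved less than that of lysine: 3 of 10 arginine genes rose and 1 fell, 4 of 12 genes of branched-chain synthesis rose (2 without library 1 at 37°C or library 2 at 30°C) and 1 fell, and 8 of 34 genes of sulfate assimilation and methionine fell (5 without library 2 at 30°C) and 1 rose. *MET17*, present in a single copy in this strain, fell by 1.32.

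At the cell surface, the mannoproteins that are otherwise typical of cold or anaerobic cells were low at 37°C. Of 11 tested genes on their list, which also holds the sterol importer *PDR11*, 7 (63.6%) fell and 1 rose, and the median was -0.84. The gene that rose was *PDR11*, which is not a mannoprotein, and its call was lost without library 2 at 37°C or library 2 at 30°C. *DAN1* had 114 and 195 counts at 37°C, against 1407 and 1519 at 30°C, and *TIR2* had 416 and 465 counts at 37°C, against 3373 and 3957 at 30°C. They fell by 3.28 and 3.05, and *TIR1*, *TIR3* and *TIR4* by 2.35, 1.33 and 1.25. Of 20 genes of the cell wall integrity pathway 5 rose and none fell: the sensors *MTL1* and *MID2* by 0.83 and 0.62, the transcription factors *SWI4* and *RLM1* by 0.77 and 0.65, and the kinase *KDX1* by 0.52 (adjusted p = 0.051 without library 1 at 37°C, 0.084 without library 2 at 37°C and 0.15 without library 1 at 30°C). Of 31 wall proteins and enzymes 9 rose (5 without library 2 at 37°C or library 1 at 30°C), led by the yapsin *YPS3* (0.97) and *PST1* (0.82), and 4 fell (2 without library 1 or 2 at 37°C or library 1 at 30°C).

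Lipid genes divided by class. Of 24 genes of sphingolipid synthesis 9 (37.5%) rose and none fell (6 to 8 rose when a library was left out): the hydroxylase *SUR2*, which makes phytosphingosine, had 4488 and 4813 counts at 37°C, against 2077 and 2126 at 30°C, and rose by 1.14 (SE 0.08, adjusted p = 3.5e-08), and the ceramidase *YPC1*, *SUR1* and the ceramide synthase *LAC1* rose by 1.23, 0.80 and 0.69. Of 20 genes of inositol and phospholipid synthesis 8 fell and 2 rose, and both rises were lost whichever library was left out; *CHO1*, phosphatidylserine synthase, fell by 1.12. Of 27 ergosterol genes 7 fell and 1 rose, with *ERG8* at -0.67 and *ERG6* at -0.57, while their activator *UPC2* rose by 0.66. In fatty acid synthesis *FAS1* and *FAS2*, the subunits of fatty acid synthase, fell by 0.45 and 0.47.

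In carbon metabolism, 2 of the enzymes that turn acetaldehyde into acetate were low at 37°C. *ALD6*, the cytosolic acetaldehyde dehydrogenase, had 26498 and 24244 counts at 37°C, against 85626 and 82872 at 30°C, and *ALD4*, the mitochondrial one, had 15345 and 14761 counts at 37°C, against 43912 and 41018 at 30°C. They fell by 1.73 and 1.50, and 10 of 18 genes of ethanol and acetate metabolism fell (6 without library 2 at 37°C or library 2 at 30°C). The 2 that rose were *ALD5*, another mitochondrial acetaldehyde dehydrogenase (0.72, adjusted p = 0.06 without library 1 at 37°C and 0.063 without library 2 at 30°C), and *ADH1*, the main alcohol dehydrogenase of fermentation (0.53, adjusted p = 0.13 without library 1 at 37°C and 0.13 without library 2 at 30°C). In glycolysis 7 of 21 rose and 1 fell; the rises included *PGI1* (0.41), both subunits of phosphofructokinase (*PFK1* with 0.47, *PFK2* with 0.51), the kinases that make its activator (*PFK27* with 1.05, *PFK26* with 0.74) and the regulator *GCR1* (0.77), while the fall was that of the minor pyruvate kinase *PYK2* (-0.35, adjusted p = 0.23 without library 1 at 37°C, 0.056 without library 2 at 37°C, 0.057 without library 1 at 30°C and 0.23 without library 2 at 30°C). Among hexose transporters *HXT4* rose by 1.40 and *HXT2* fell by 1.44. *CTP1*, the mitochondrial citrate carrier, and *EEB1*, an ethyl ester synthase, which are on no list, fell by 2.65 and 2.77, and malic enzyme *MAE1* rose by 1.48. *PEX11*, a peroxisome division factor, fell by 1.99. Of 38 respiratory genes 5 were higher and 5 lower (13.2% each way, near the 11.9% and 11.6% of all genes; 3 higher whichever library was left out, 3 lower without library 2 at 37°C and 2 lower without library 1 at 30°C), among them their activator *HAP4* (1.07) and the hypoxic cytochrome *CYC7* (1.10). Of transcripts encoded by mitochondrial DNA only the ribosomal RNAs passed the filter, and neither was called in the fit of all libraries; *15S_RRNA* had 8.2 and 28.9 counts at 37°C, against 7.26 and 7.81 at 30°C, and *21S_RRNA* had 20.5 and 57.8 counts at 37°C, against 20.9 and 14.6 at 30°C, and without library 1 at 37°C both passed (log2 difference 1.81, adjusted p = 0.033 and log2 difference 1.67, adjusted p = 0.018). Of 19 tested genes of heme and of aerobic or hypoxic pairs 5 (26.3%) were higher and 1 (5.26%) was lower, with a median of 0.14. The gene that fell was *ROX1*, a repressor of hypoxic genes (-1.49), and its target *HEM13* rose by 0.96. The mannoprotein genes *DAN1* and *TIR1*, typical of cold or anaerobic cells, fell, and a link of *ROX1* to any of these genes was not tested.

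*NCE103*, carbonic anhydrase (YNL036W, chromosome XIV, 559814 to 560479), belonged to no list and was among the 12 largest falls. It had 647 and 655 counts at 37°C, against 8714 and 7369 at 30°C, without overlap, and a log2 difference of -3.62 (SE 0.09, adjusted p = 1e-12). YLR108C, a gene of unknown function, had 323 and 319 counts at 37°C, against 3858 and 4032 at 30°C, and fell by 3.62. Among the 12 largest rises that have not been described, *STP4*, a zinc finger protein, rose by 2.34, *CIP1*, an inhibitor of cyclin-dependent kinase, by 2.23, *VID24*, the substrate receptor that sends gluconeogenic enzymes to degradation, by 1.85, and the little-studied *TDA6* and YBR184W by 2.64 and 2.00. Of 32 genes of homologous recombination 5 (15.6%) were higher, near the 11.9% of all genes, and none lower. Fewer were higher when any library was left out. *RAD54* was among those higher, with 0.54. Of 15 genes of ribonucleotide reductase and its checkpoint 4 (26.7%) rose and 1 fell, *DIF1* (-0.66, adjusted p = 0.074 without library 2 at 37°C). The reductase subunits *RNR2*, *RNR3* and *RNR4* rose by 0.84, 1.00 and 0.56.

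Called genes were unevenly placed. Of 184 genes within 20 kb of a chromosome end 66 (35.9%) were called, 54 of them lower and 12 higher, against 24.3% of the 5472 genes farther in, of which 697 were higher and 631 lower. Those lower within 20 kb of an end include *LYS1*, *ARN1*, *ARN2*, *PHO89* and *PHO11* (-1.19). Across chromosomes the share called ran from 19.5% on III to 28.8% on XI. On chromosome I, 15 of 17 called genes were higher.

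The other environments placed these levels. Mean counts of *LYS9* in SC were 2429.7 ± 486 at 37°C and 36472 ± 6258 at 30°C, and 627 ± 59.9 in SC with NaCl, 10459 ± 613 in YPG, and 2458 ± 164 and 1875 ± 89.4 in YPD at 32°C and 24°C (n = 2 each). *LYS9* was thus highest in SC at 30°C, and its level in SC at 37°C lay close to that in YPD at 32°C. *GPX2* was highest in SC at 30°C too, with 197 ± 6.62 at 37°C and 1975 ± 45 at 30°C in SC, and 123 to 733 in the other environments. *NCE103* was high in SC with NaCl, at 9822 ± 41.1, besides SC at 30°C (8042 ± 951), and lower in the rest, SC at 37°C included (651 ± 5.82). *TPO2* was highest in SC at 37°C (14104 ± 1232), with 1653 ± 12.1 in SC at 30°C and 5296 ± 804 with NaCl. For *HSP82* SC with NaCl exceeded SC at 37°C (23552 ± 1479, against 16078 ± 772). No tests were made for these orders.

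**Figure D4:**
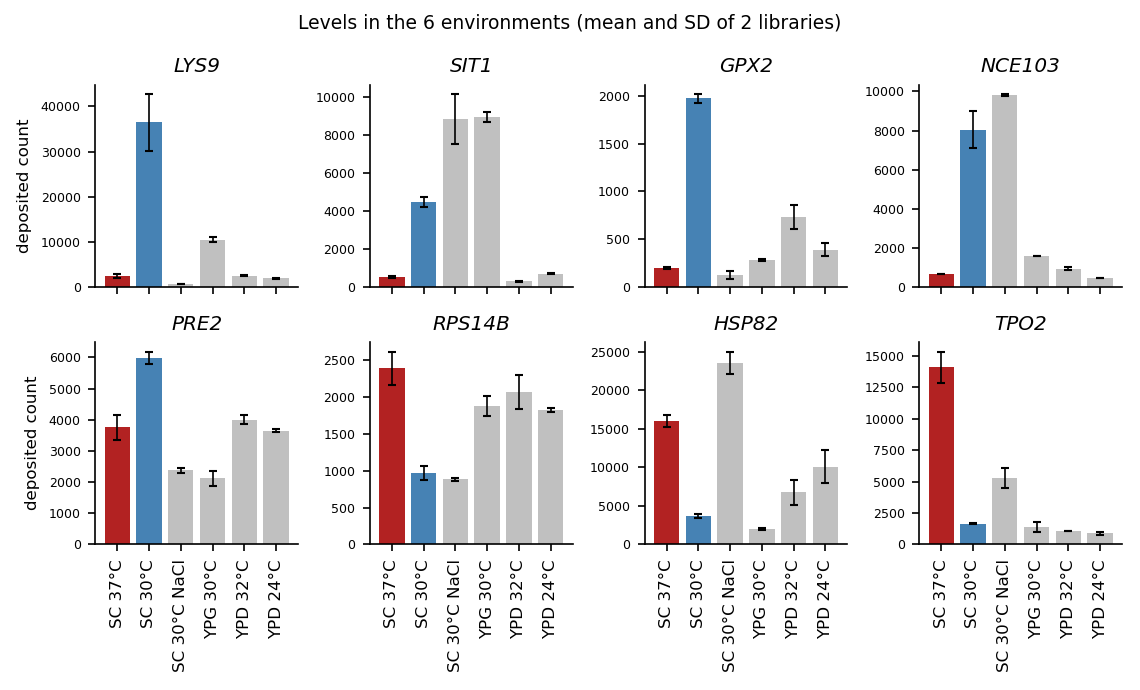
Mean deposited count (y axis, linear, from 0) of 8 genes in the 6 environments, with bars for the SD of 2 libraries, SC grown at 37°C in red, that at 30°C in blue and the others in grey. *LYS9* and *GPX2* are highest in SC at 30°C, *TPO2* is highest in SC at 37°C, and *HSP82* is higher in SC with NaCl than in SC at 37°C.

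A warmer temperature was also tested in YPD, 32°C against 24°C, a contrast that shares no library with that in SC but differs in medium and range. There 3000 genes (49.7%) differed (1850 without library 1 at 32°C), and the 2 temperature differences differed from each other for 2384 genes (39.5%; limma, interaction contrast). The median over all genes was 0.26 in YPD with the deposited scaling and -0.01 when libraries were scaled by medians of ratios, so counts of higher and lower genes in YPD depend on scaling. Of all 6040 genes 42.9% were higher and 6.74% lower at 32°C with the deposited scaling, and 20.6% were higher and 21.1% lower with the other. Of the 720 genes that were higher at 37°C 306 (42.5%) were higher at 32°C in YPD and 96 (13.3%) were lower with the deposited scaling; of the 834 higher with the other scaling, 208 (24.9%) were higher in YPD and 238 (28.5%) lower. Of 703 genes that were lower at 37°C 372 (52.9%) were higher in YPD and 62 (8.82%) lower, and with the other scaling the numbers were 263 (27.0%) and 209 (21.5%) of 973. The 42.5%, the 8.82% and the 21.5% were near the shares of all genes.

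The lists are therefore given under both scalings, the deposited one first, and are to be read against all genes, of which 31.4% and 20.3% had a difference between the contrasts that was lower in SC, and 8.06% and 18.7% one that was higher. Lysine genes were higher at 32°C in YPD, 11 and 9 of 12, and the difference between the contrasts passed for all 12 under both, each lower in SC. Antioxidant genes were higher in YPD in 23 and 16 of 27 cases, and 22 and 19 of the differences between contrasts were lower in SC. For the proteasome 34 and 26 of 36 were lower in SC, but its median in YPD, 0.25 and -0.02, was that of all genes. Iron genes had medians of -0.05 and -0.32 in YPD, and 17 and 15 of 24 differences were lower in SC, with 1 higher under either. Of 18 Hsf1 chaperones 12 and 13 were lower at 32°C in YPD, and 16 and 17 differences were higher in SC. Ribosomal proteins of the large subunit were higher in SC in 39 and 68 of 80 differences. Msn2/Msn4 genes were higher in YPD in 17 and 11 of 23 cases, and here the balance of the differences depended on scaling, with 5 higher and 11 lower in SC under the deposited values, and 6 higher and 5 lower under the other.

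**Figure D5:**
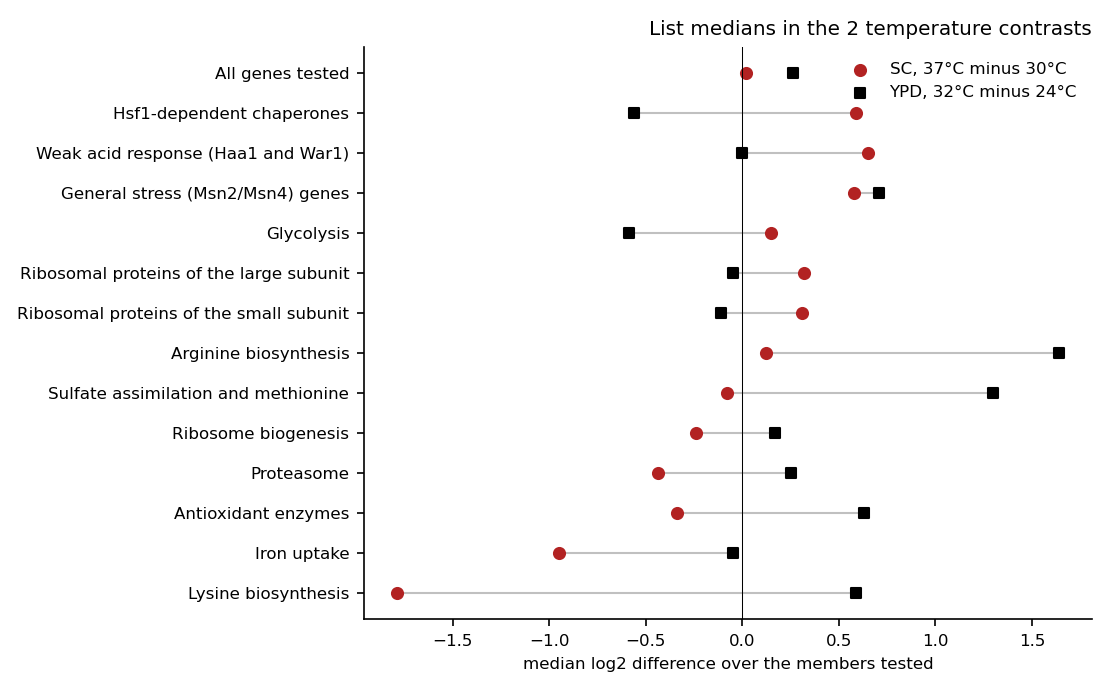
Median log2 difference (x axis) of 13 gene lists and of all genes tested, for SC at 37°C minus 30°C (red circles) and YPD at 32°C minus 24°C (black squares), with the deposited scaling. Lysine biosynthesis lies at -1.79 in SC and 0.59 in YPD, and the Hsf1 chaperones at 0.59 and -0.56.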

How the data were processed

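Cultures of BY4743 were sequenced as read pairs by the authors, who checked quality with fastQC, aligned with Hisat2 to the Ensembl yeast genome (R64), processed alignments in samtools 1.9, and ran cuffquant, then cuffnorm, for quantification. The deposited table that was tested holds a signal, that is, estimated fragment counts per gene brought by the authors to one library size in cuffnorm, so that totals no longer carry depth; 74.2% to 82% of its low values (0.5 to 20, tolerance 0.01) were whole multiples of the value of 1 fragment in their library, and reads could not be recovered. A second deposited table holds the same libraries in FPKM and was used as an alternative. Because the values are not raw counts, limma 3.58.1 (R 4.3.3) was fitted to log2(value + 1) of all 12 libraries with environment as the factor, with a variance trend on the mean and Benjamini-Hochberg adjustment over the 6040 genes whose mean reached 10; "counts" in the text are these values, log2 differences are 37°C minus 30°C on this scale and understate the change of genes with low values, and SE is the standard error of that difference.

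Named genes were the 12 largest called rises and the 12 largest called falls (mean of at least 100, no overlap between groups, in the annotation), the 3 largest of each direction in each gene list, every member of the lists for Hsf1, lysine, polyamines, mitochondrial transcripts and deleted genes, and the 5 highest means; the text gives values for part of them, and 1 item is not reported here. Other genes in the text were chosen after their values were seen. The members and lists were chosen with earlier results of these data known, and 65 lists had tested genes. Reads of near-identical genes may be split between the copies. Promoters were the 300 bases before the start codon in the RefSeq R64 genome. Python 3.11.15, numpy 2.4.6, pandas 2.3.3 and matplotlib 3.10.9 were used.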

Additional observations from a re-analysis of the deposited data

How the results depend on the processing

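Of 1423 genes that differed between 37°C and 30°C none changed direction while called in any of 15 alternatives, and of 309 named genes with a call 230 kept it in each of them and 0 reversed. The number of genes called was 1710 with the 4 libraries alone, 1466 with a pseudocount of 10 and 1416 with 0.5, 1304 of 6487 without the filter, 1415 of 5512 with a mean of at least 100, 1807 (834 higher, 973 lower) with median-of-ratios scaling, 1367 in FPKM and 1249 without the variance trend. Quantile normalization gave 2151, of which 1132 were higher; the cause was not tested. Leaving out 1 library gave 851 to 919 genes, 374 to 490 higher and 393 to 501 lower, with fewer samples in the fit, in which the remaining library of the group was assumed to vary like the other groups; in YPD it gave 1850 to 2391 of 3000, and for the difference between the contrasts 1691 to 2112 of 2384. Replicate numbers are shared between groups, but nothing in the labels says that they mark a batch, and the deviations of same-numbered libraries at 37°C and 30°C correlated with r = 0.186 across genes. A replicate block in the fit gave 1462 calls (735 higher, 727 lower), 1398 of them shared with the fit without it; with the block and the 4 libraries alone, an alternative chosen after seeing the data, 2985 were called (1543 higher, 1442 lower). With 2 libraries a group, genes of low counts had standard errors too wide for small changes to pass.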

Other observations

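Several other gene groups changed in part between 37°C and 30°C in SC. In purine synthesis 6 of 18 genes rose, with *ADE13*, which acts late in the pathway, at 0.61; 3 rose without library 1 at 37°C. *IMD2*, an inosine monophosphate dehydrogenase, fell by 0.93, whereas its paralog *IMD3* rose by 0.59, and reads can be split between these copies. Of 26 genes of cyclins and the cell cycle 6 (23.1%) rose, among them the G1 cyclin gene *CLN2* (0.57), and 2 (7.69%) fell. Of all genes 11.9% rose and 11.6% fell. Fewer of the 26 rose when any library was left out, and fewest without library 2 at 37°C, library 1 at 30°C or library 2 at 30°C.

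Of 19 genes of peroxisomes and beta-oxidation 7 fell (4 without library 1 at 37°C), with the thioesterase *TES1* (-0.60) next to *PEX11*, and *CRC1*, the mitochondrial carnitine carrier, rose by 1.07. *CTR2*, the copper exporter of the vacuole, had 1346 and 1197 counts at 37°C, against 2914 and 2723 at 30°C, and fell by 1.15. *PUT1*, proline oxidase, rose by 1.09, whereas *PUT2*, the next enzyme of proline breakdown, fell by 0.60. The adhesin *FLO11* rose by 0.77. Of 10 histone genes *HTA1*, *HTB1* and *HHO1* were lower, with -0.50, -0.36 and -0.43, and *HHO1* was the member still called without library 2 at 37°C (adjusted p = 0.41 without library 2 at 37°C and 0.29 without library 1 at 30°C for *HTA1*, and adjusted p = 0.083 without library 1 at 37°C, 0.054 without library 2 at 37°C and 0.09 without library 2 at 30°C for *HTB1*).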
